A study of Mus musculus with 4 samples.

Results

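The clustered histone genes are the genes for the linker histone H1 and the core histones H2A, H2B, H3 and H4 that lie next to each other in a few places in the mouse genome. They were taken from the deposited gene table by symbol, as every row that begins with Hist1h, Hist2h, Hist3h or Hist4h, and the row of a gene whose symbol ends in -ps was left out. This gave 69 of the 51912 genes in the table. There were 6 H1 genes, 20 H2A genes, 18 H2B genes, 12 H3 genes and 13 H4 genes. By the GENCODE M21 annotation (GRCm38), 56 lay on chromosome 13, 10 on chromosome 3, 2 on chromosome 11 and 1 on chromosome 6. The annotation calls 2 of the 69 pseudogenes.

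RNA was sequenced from sorted pancreatic β cells of mouse neonates at day 13, in 2 Robo mutant and 2 control libraries. Robo mutant mice carried Robo1delta/delta and Robo2flx/flx, and control mice carried Robo1+/+ and Robo2+/+. All of them carried Ucn3-Cre/+, a Cre recombinase driven from a gene of maturing β cells, and Rosa26-lsl-H2B-mCherry/+, a nuclear reporter that the Cre switches on and by which the cells were sorted. The Robo1 allele is given as deleted, so its loss was not confined to cells with Cre, whereas loss of Robo2 depends on the Cre. Since nothing in the labels ties a library to its own animal, a p-value here covers the variation among these 4 libraries alone, part or all of which may be technical.

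Totals ran from 47788000 to 49593712 counts in Robo mutant libraries and from 38886129 to 48217557 in control libraries. The targeted genes followed the labels: Robo1 was at 22.3 and 21.0 CPM (counts scaled to library size) in Robo mutant cells, against 48.5 and 104 CPM in control cells, and Robo2 at 32.7 and 25.6 CPM, against 75.3 and 118 CPM. All 9 β cell markers were detected in every library, and their summed level was 226303 and 159135 CPM in Robo mutant cells and 230191 and 196153 CPM in control cells. Transcripts of acinar cells, the enzyme-secreting cells of the pancreas, were present in every library and summed to 3409 and 54089 CPM in Robo mutant cells, against 5539 and 792 CPM in control cells. The library with most of them was thus Robo mutant 2, and 13 of the 14 acinar markers were detected in all 4 libraries. Markers of δ cells, the somatostatin cells of the islet, summed to 2506 and 1289 CPM in Robo mutant cells, against 1063 and 981 CPM in control cells. Stromal markers summed to 896 and 11.3 CPM in Robo mutant cells, against 2201 and 658 CPM in control cells, and α cell markers to 19275 and 24117 CPM, against 23796 and 11889 CPM. In sorted cells measured in bulk, fewer cells of a type and less RNA per cell cannot be told apart.

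Core histones form the protein spool around which DNA is wound, and H1 binds the DNA between spools. Cells make most of their histones while they copy their DNA, from genes present in many near-identical copies. The messenger RNAs of these genes are unusual in that they normally end in a short stem-loop and carry no poly(A) tail. Some of the genes also give polyadenylated transcripts that run on past the stem-loop, mainly in cells that have stopped dividing. The SMART-Seq v4 kit used here starts cDNA synthesis from the poly(A) tail, so it favours transcripts that carry one.

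The stem-loop was found in the annotated transcripts of 46 of the 69 genes, against 64 of 55450 annotated genes in all (0.115%). The sequences show how uniform this element is across the family, with the paired stem bases in capitals and the loop in lower case. The first was carried by 26 genes of the H1, H2A, H2B and H3 types, the second by 7 H4 genes and the third by 6 genes of the H1, H2B and H3 types. The examples are from Hist1h1c (chr13:23739512-23739527, plus strand), Hist1h4h (chr13:23531458-23531473, plus strand) and Hist1h2bb (chr13:23747203-23747218, plus strand), all GRCm38.
Hist1h1c: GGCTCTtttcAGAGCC
Hist1h4h: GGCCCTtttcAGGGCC
Hist1h2bb: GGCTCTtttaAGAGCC
The stem of the H4 example differs from the other stems shown, and in each the bases on the right of the loop pair with those on the left. The remaining 7 genes with a match carried one of 5 further forms.

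Most histone counts came from a handful of genes. Together the 69 genes held 0.0713% ± 0.0080 of all counts in Robo mutant cells and 0.0632% ± 0.0081 in control cells (SD, n = 2 each). Hist1h1c, which encodes the linker histone H1.2, held 38.2% ± 2.80 of these histone counts in Robo mutant cells and 32.7% ± 2.29 in control cells (SD, n = 2 each). The 10 most abundant genes together held 88.5% ± 0.096 and 86.9% ± 0.268 in Robo mutant and control cells (SD, n = 2 each). At the other end, 42 of the 69 genes averaged under 1 CPM, and 3 (Hist1h2aa, Hist1h3b and Hist1h4m) had 0 counts in all 4 libraries. A count of 0 over the 2 libraries of a genotype allows a level of up to 0.0314 CPM in Robo mutant cells and 0.0339 CPM in control cells (3 counts over the group, counting error only).

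**Figure D1:**
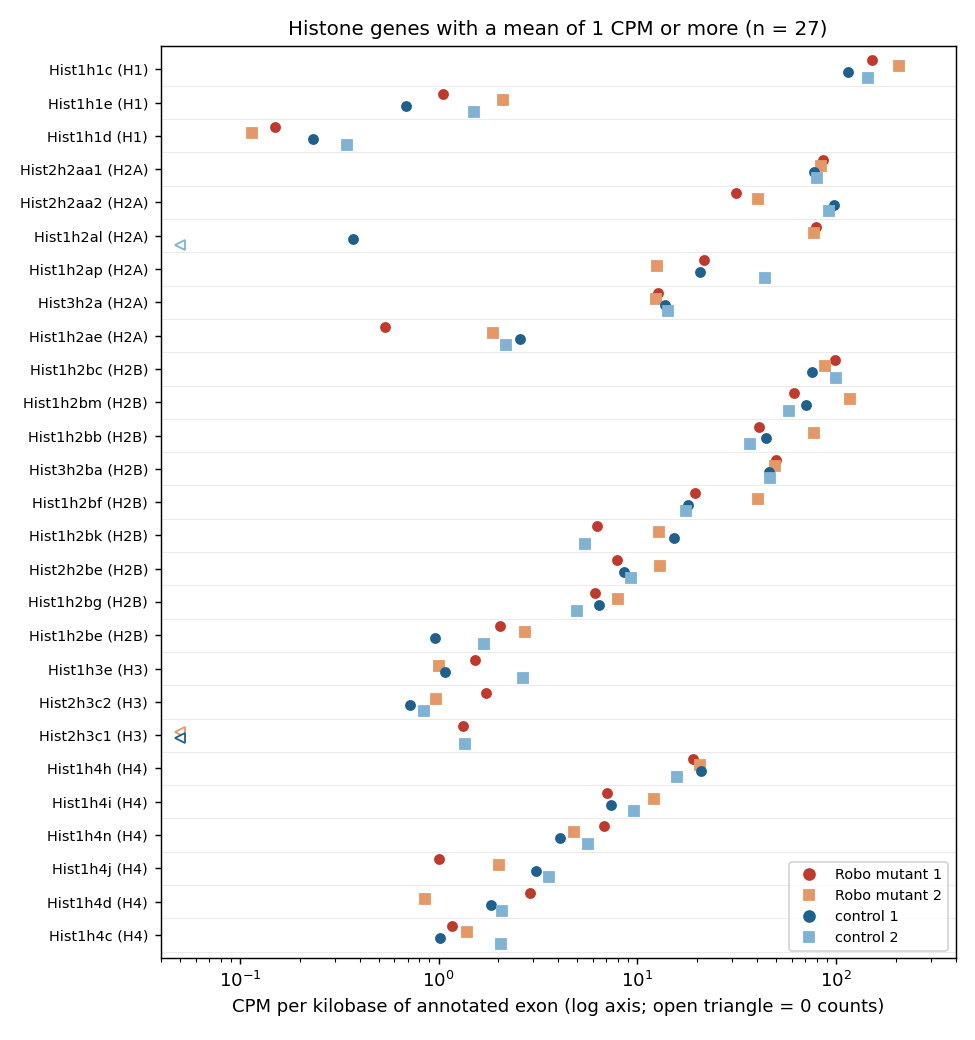
Level of each of the 27 histone genes with a mean of at least 1 CPM, in CPM per kilobase of annotated exon on a log axis, in Robo mutant (red and orange) and control (blue) libraries, grouped by histone type. The genotypes lie farthest apart for Hist1h2al, and Hist2h2aa2 is lower in both Robo mutant libraries.

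Read per kilobase, the genes fell into a few well-expressed members and a long tail. The highest were Hist1h1c at 155 CPM per kilobase (mean of 4 libraries), the H2B gene Hist1h2bc at 90.6, the H2A gene Hist2h2aa1 at 82.1 and the H2B gene Hist1h2bm at 77.2 CPM per kilobase. The highest H4 gene, Hist1h4h, stood at 19.1 and the highest H3 gene, Hist1h3e, at 1.57 CPM per kilobase. The levels per kilobase of Hist1h2bc and Hist2h2aa1, next to each other in this order, overlapped between libraries.

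The annotated 3′ end sorted the genes only in part. Transcripts were annotated to run on more than 100 bases past the stem-loop in 23 genes, to end near it in 23 genes, and had no match to the searched letters in 23 genes. Many genes of the third class have short annotated transcripts, such as 381 bases for Hist1h2bl and 411 for Hist1h3i. These may stop before a stem-loop, so the lack of a match does not show that the element is absent. The median level was 1.34 CPM per kilobase in the first class, 0.335 in the second and 0.488 in the third. In the first class the highest gene was Hist1h1c, annotated with 840 bases after the stem-loop, and 3 genes reached 10 CPM per kilobase. In the second class 7 genes did, led by Hist2h2aa1, which is annotated with 35 bases after it. The annotation does not show which 3′ ends were present in these cells.

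**Figure D2:**
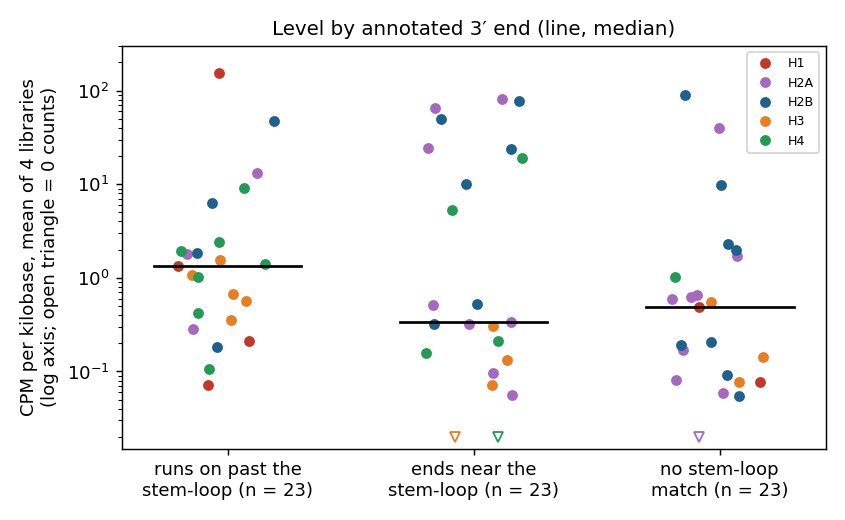
Mean level over 4 libraries of each histone gene in CPM per kilobase, on a log axis, by whether its annotated transcript runs on past the stem-loop, ends near it or has no match, with the class median as a line. Genes above 10 CPM per kilobase occur in all 3 classes.

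The comparison of Robo mutant with control cells asks whether histone transcripts differ when β cells lack these receptors. Of the 69 genes, 48 had at least 10 counts in at least 2 libraries and were tested, and the other 21 had at most 40 counts in any library. With edgeR's quasi-likelihood test, 0 of the 48 had an adjusted p under 0.05, where 0% of the 16517 tested genes of the table did. These 16517 are the whole set over which p was adjusted. The targeted genes Robo1 and Robo2 were not called by edgeR either, with an adjusted p of 0.680 for each. DESeq2 called both, with an adjusted p of 0.00186 for Robo1 and 1.99e-05 for Robo2. The lack of calls by edgeR therefore does not show that histone genes are unchanged. At an unadjusted p under 0.05 there were 4 histone genes by edgeR, 3 higher in Robo mutant cells (against 1.99% of all tested genes) and 1 lower (against 4.21%). The 4 are 8.33% of those tested, beside 6.21% over all tested genes. The 3 higher ones (Hist1h2al, Hist1h2ao and Hist2h2bb) had under 10 counts in both control libraries and passed the filter only through the Robo mutant libraries, so they had to differ and nothing is read from this share. Leaving out Robo mutant 1 gave 8 of 40 at an unadjusted p under 0.05 by edgeR, where the same fit gave 19% of all tested genes, and leaving out Robo mutant 2 gave 6 of 41, beside 17.4%. Leaving out control 1 gave 2 of 41, beside 1.2%, and leaving out control 2 gave 4 of 44, beside 1.16%. Each of these 4 fits called 0 histone genes. Limma called 0 and had 5 at an unadjusted p under 0.05 (beside 6.94% of all tested genes), and DESeq2 called 2, Hist1h2al and Hist2h2aa2, where it called 0.914% of all tested genes.

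In direction the tested histone genes were mixed, with 23 higher and 25 lower in Robo mutant cells. The median log2 change, Robo mutant over control, was -0.05, beside -0.01 over all tested genes. Both Robo mutant libraries lay above both control libraries for 13 of the 48 genes (27.1%, beside 16.1% of all tested genes), and below both for 11 (22.9%, beside 20.4%). Genes that are low in 1 genotype pass the filter only through the other, so these shares are a description. Without Robo mutant 2, the library with most acinar transcripts, the median was -0.26 over 41 tested genes, and without control 2 it was 0.13 over 44.

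**Figure D3:**
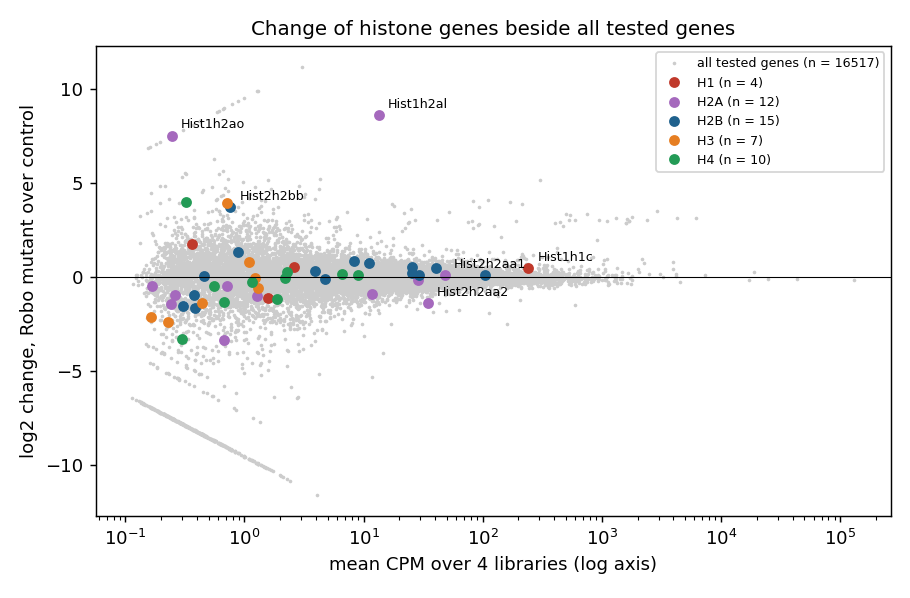
Log2 change, Robo mutant over control, against mean CPM over 4 libraries on a log axis, for the 48 tested histone genes (coloured by type) and all 16517 tested genes (grey). Most histone genes lie among genes of a like level; Hist1h2al, at 8.60, and Hist2h2aa2, at -1.40, stand out at their level.

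The 2 genes that DESeq2 called, Hist1h2al and Hist2h2aa2, are H2A rows that are near-copies of each other and of Hist2h2aa1. Hist1h2al (chr13:51202727-51203065, minus strand, GRCm38) is annotated as a processed pseudogene and lies 27267876 bases from the end of the Hist1 cluster. It had 1351 and 1200 counts in Robo mutant cells, against 6 and 0 counts in control cells. The 2 genotypes did not overlap, and all but a few of the counts assigned to it came from Robo mutant libraries. Its level was 26.7 ± 0.451 CPM in Robo mutant cells and 0.0627 ± 0.0886 CPM in control cells (SD, n = 2 each), and the fitted log2 change, with its SE, came to 8.60 ± 1.02. That value rests on the 6 counts of control 1, and it was 13.24 without control 1 and 7.71 without control 2. By edgeR the unadjusted p was 0.00064 and the adjusted p 0.680. By DESeq2 it was higher in Robo mutant cells with an adjusted p of 1.11e-25. Hist1h2al passed the filter only through the Robo mutant libraries, so these p-values are given as a description.

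Hist2h2aa2 (chr3:96239749-96240276, minus strand, GRCm38), a protein-coding H2A gene, went the other way. Its level was 16.6 and 21.3 CPM in Robo mutant cells, against 51.5 and 48.7 CPM in control cells. Both Robo mutant libraries lay well below both control libraries. The log2 change, with its SE, came to -1.40 ± 0.20, a 2.64-fold lower level. By edgeR the unadjusted p was 0.0013 and the adjusted p 0.680, and by DESeq2 the adjusted p was 0.000178. The neighbouring inverted copy Hist2h2aa1 (chr3:96245497-96246082, plus strand, GRCm38), which encodes the same protein, was at 50.3 and 49.3 CPM in Robo mutant cells, against 45.6 and 47.2 CPM in control cells. The log2 change, with its SE, came to 0.10 ± 0.13 (adjusted p of 1.00 by edgeR).

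The sequences of these rows are shown because they differ so little. The 528 bases of the Hist2h2aa2 transcript are contained without a difference in the 586 bases of the Hist2h2aa1 transcript. Hist1h2al matches Hist2h2aa2 over 339 aligned bases with 2 differences, T120C and G216T, where the first base is that of Hist2h2aa2, the position is counted from 1 at the 5′ end of Hist1h2al and the last base is that of Hist1h2al. Each window below is read 5′ to 3′ along the transcript and has the differing base in capitals. The windows of Hist1h2al lie at chr13:51202931-51202961 and chr13:51202835-51202865, and those of Hist2h2aa2 at chr3:96240101-96240131 and chr3:96240005-96240035, all on the minus strand of GRCm38.
Hist1h2al, first difference: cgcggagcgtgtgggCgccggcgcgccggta
Hist2h2aa2, first difference: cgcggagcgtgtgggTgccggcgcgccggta
Hist1h2al, second difference: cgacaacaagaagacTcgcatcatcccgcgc
Hist2h2aa2, second difference: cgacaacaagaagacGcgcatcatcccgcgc
Outside these positions a read from inside the aligned stretch has the same letters in all 3 genes, so the way such reads are divided between the rows bears on each row's estimated count but not on their sum.

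Summed over the 3 genes, the genotypes had nearly the same level. The sum was 94.0 and 97.0 CPM in Robo mutant cells, against 97.2 and 95.9 CPM in control cells. The libraries of the genotypes overlapped, with a log2 ratio of -0.02 and a within-group SD of 0.03 on the log2 scale. The sum was examined after the values of the single genes were seen, and it is given without a test. With the overlapping predicted genes Gm20632, Gm20633 and Gm20634 added, the log2 ratio was -0.01. Set against Hist2h2aa1 in the same library, Hist1h2al counts came to 0.537 and 0.535 of the Hist2h2aa1 counts in Robo mutant cells, against 0.00275 and 0 in control cells. Hist2h2aa2 counts came to 0.331 and 0.432 of it in Robo mutant cells, against 1.13 and 1.03 in control cells. The letters that the reads carried at the 2 differing positions were not analysed here.

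**Figure D4:**
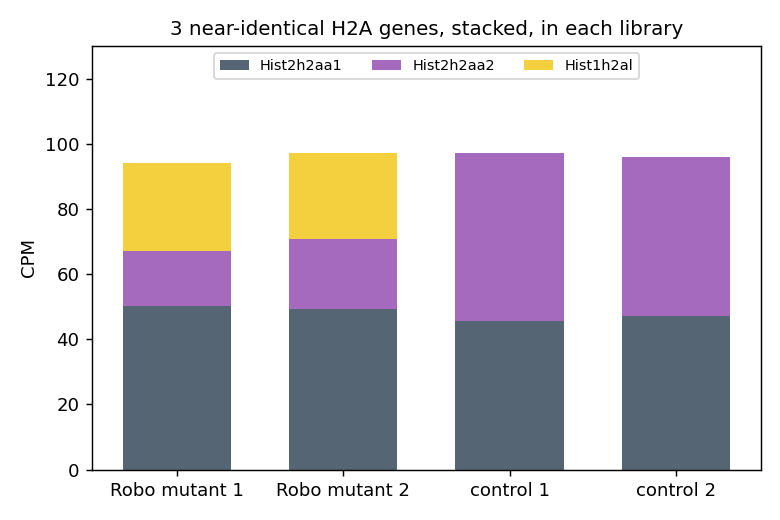
CPM of Hist2h2aa1, Hist2h2aa2 and Hist1h2al, stacked, in each library. The stack reaches 94.0 to 97.2 CPM in all 4 libraries, while the Hist1h2al part is seen only in the Robo mutant libraries at this scale.

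Shared sequence was general in the family. At 95% identity over at least 100 bases, 60 of the 69 genes matched another annotated gene, and 55 matched another histone gene of the set. In 7 cases a protein was encoded by more than 1 gene, taking in 45 genes, and all 13 H4 genes encode the same protein. Values of single low members are therefore uncertain, and 26 genes also overlap another annotated gene, whose reads cannot be told apart because the Nextera libraries carry no strand. Sums by histone type are less sensitive to reads shared between members of a type, and they are described without a test. Reads shared with genes outside the set may still bear on the sums. The same holds between Hist1h1e, an H1 gene, and Hist1h2be, an H2B gene, which match by the same measure.

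H1 transcripts were summed at 240 and 330 CPM in Robo mutant cells, against 184 and 232 CPM in control cells. Both Robo mutant libraries lay above both control libraries, the lower of them by a small margin, with a log2 ratio of 0.46 and a within-group SD of 0.29 on the log2 scale. Without Robo mutant 2 the ratio was 0.21. Nearly all of this was Hist1h1c (chr13:23738808-23740367, plus strand, GRCm38), which had no near-identical gene. It was at 236 and 325 CPM in Robo mutant cells, against 180 and 226 CPM in control cells. The log2 change, with its SE, came to 0.47 ± 0.22 (adjusted p of 0.898 by edgeR), and without Robo mutant 2 it was 0.22. That library has the highest Hist1h1c level as well as most acinar transcripts, and the part of these in the difference was not tested.

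The other H1 genes were low. Hist1h1e, for H1.4, was at 2.04 and 4.09 CPM in Robo mutant cells, against 1.32 and 2.92 CPM in control cells, and overlapped between genotypes. Hist1h1d, for H1.3, was at 1.12 and 0.858 CPM in Robo mutant cells, against 1.73 and 2.58 CPM in control cells, with a log2 change (± SE) of -1.12 ± 0.77. Hist1h1b, for H1.5, which is made mainly in dividing cells, had 20 and 33 counts in Robo mutant cells, against 12 and 3 in control cells. Neither of the last 2 overlapped between genotypes, and both had an edgeR adjusted p of 0.954. Hist1h1t, the H1 gene of the testis, had 13 counts in Robo mutant 1 and 0 in the other libraries.

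H2A transcripts were summed at 134 and 134 CPM in Robo mutant cells, against 143 and 152 CPM in control cells. The genotypes did not overlap, with a log2 ratio of -0.14 and a within-group SD of 0.04 on the log2 scale. Leaving out control 2 gave -0.091. Without the 2 annotated pseudogenes of the set, which takes Hist1h2al away and leaves Hist2h2aa2, the log2 ratio was -0.46. Without Hist2h2aa1, Hist2h2aa2 and Hist1h2al together, the sum was 39.8 and 37.1 CPM in Robo mutant cells, against 45.6 and 55.9 CPM in control cells. Most of that remainder was Hist3h2a (chr11:58954685-58956830, plus strand, GRCm38), at 27.3 and 26.7 CPM in Robo mutant cells, against 29.6 and 30.6 CPM in control cells, with a log2 change (± SE) of -0.16 ± 0.17.

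Hist1h2ap was the member of the remainder that varied most in absolute level. It was at 10.4 and 6.07 CPM in Robo mutant cells, against 9.92 and 21.1 CPM in control cells, so the genotypes overlapped and control 2 stood highest. The log2 change, with its SE, came to -0.91 ± 0.52 (adjusted p of 0.922 by edgeR). Hist1h2ao had 37 and 11 counts in Robo mutant cells, against 0 and 0 counts in control cells. Its level was at least 14.9-fold higher in Robo mutant cells, against a floor of 3 counts over the control group. It passed the filter only through the Robo mutant libraries, and its adjusted p by edgeR was 0.680. Hist1h2ap and Hist1h2ao encode the same protein, with 7 further H2A genes. That group of 9 summed to 12.2 and 8.80 CPM in Robo mutant cells, against 14.6 and 24.7 CPM in control cells.

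H2B transcripts were summed at 248 and 313 CPM in Robo mutant cells, against 224 and 242 CPM in control cells. The lower Robo mutant library was only just above the higher control library, with a log2 ratio of 0.27 and a within-group SD of 0.18 on the log2 scale. Without Robo mutant 2 the ratio was 0.090. The reporter in both genotypes carries an H2B reading frame, and how many of its reads fell on the H2B rows was not tested. The most abundant H2B gene, Hist1h2bc, was at 114 and 102 CPM in Robo mutant cells, against 87.3 and 116 CPM in control cells. Its genotypes overlapped, with a log2 change (± SE) of 0.09 ± 0.19. Hist3h2ba, on chromosome 11 beside Hist3h2a, was at 30.6 and 30.2 CPM in Robo mutant cells, against 28.1 and 28.6 CPM in control cells, a log2 change (± SE) of 0.10 ± 0.16.

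**Figure D5:**
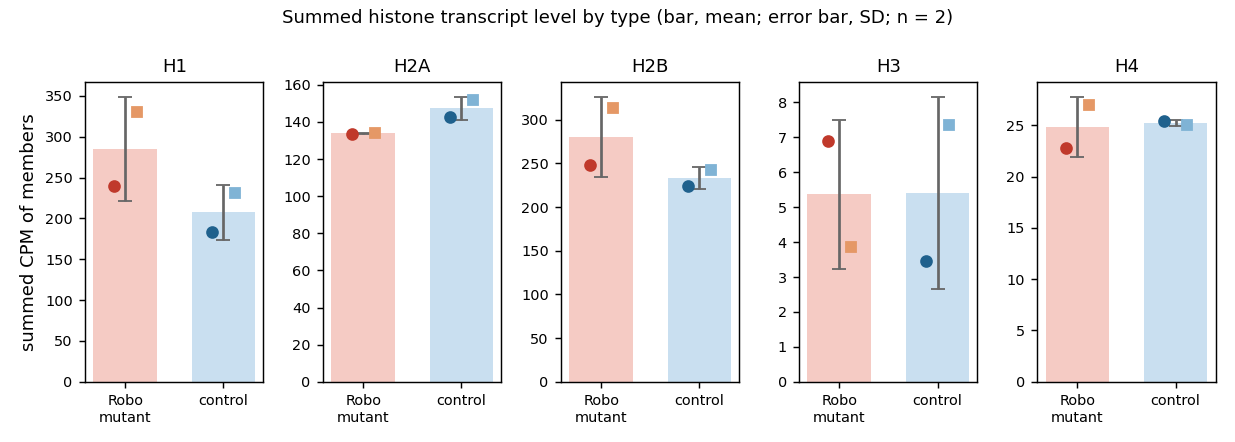
Summed CPM of the H1, H2A, H2B, H3 and H4 genes in Robo mutant cells (left bar of each panel) and control cells (right bar), with bars at the mean, error bars for the SD (n = 2) and points for library 1 (circle) and library 2 (square). H1 and H2B lie higher in both Robo mutant libraries and H2A lower, with margins from 5.84 to 8.66 CPM between the nearest libraries, and H3 and H4 overlap.

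Robo mutant 2 carried the higher part of the H2B signal. Hist1h2bm was at 32.4 and 61.9 CPM in Robo mutant cells, against 36.9 and 30.6 CPM in control cells. Hist1h2bb was at 20.8 and 39.4 CPM in Robo mutant cells, against 22.7 and 18.7 CPM in control cells. Both overlapped between genotypes with only Robo mutant 2 high, and the log2 changes (± SE) were 0.48 ± 0.35 and 0.54 ± 0.36 (edgeR adjusted p of 0.968 and 0.953). The 2 genes kept a nearly fixed ratio, Hist1h2bb over Hist1h2bm, of 0.643 and 0.637 in Robo mutant cells and 0.615 and 0.611 in control cells. No stretch of 100 bases or more at 95% identity joined them to each other, but both matched Hist1h2bq and Hist1h2br by that measure. Whether shared reads bear on the ratio was not tested.

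Hist1h2bf was at 9.04 and 18.8 CPM in Robo mutant cells, against 8.34 and 8.07 CPM in control cells, again with Robo mutant 2 highest. Hist1h2be was at 9.08 and 12.1 CPM in Robo mutant cells, against 4.26 and 7.56 CPM in control cells, a log2 change (± SE) of 0.84 ± 0.44. Neither overlapped between genotypes, and the edgeR adjusted p was 0.922 for Hist1h2bf and 0.917 for Hist1h2be. Hist2h2bb had 85 and 52 counts in Robo mutant cells, against 3 and 6 counts in control cells. This was the fourth gene with an unadjusted p under 0.05 by edgeR, at 0.0239 (adjusted p of 0.687), and its DESeq2 adjusted p was 0.295. Hist2h2bb passed the filter only through the Robo mutant libraries. Its sequence is shared with the predicted genes Gm20628 and Gm42743, which lie across it. Gm20628 had 69 and 94 counts in Robo mutant cells, against 73 and 36 counts in control cells. How reads were divided between these rows was not tested. Between genotypes, Hist1h2bl and Hist1h2bh also did not overlap, with log2 changes (± SE) of 1.32 ± 2.12 and -1.55 ± 1.21.

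H3 and H4 genes had few counts. The H3 sum was 6.88 and 3.85 CPM in Robo mutant cells, against 3.47 and 7.36 CPM in control cells, and the libraries of a genotype differed from each other more than the genotype means. The H4 sum was 22.8 and 26.9 CPM in Robo mutant cells, against 25.4 and 25.1 CPM in control cells. Both overlapped, with log2 ratios of -0.01 for H3 and -0.02 for H4. With 1 library left out the H3 ratio ran from -0.49 (without Robo mutant 1) to 0.63 (without control 2) and the H4 ratio from -0.14 (without Robo mutant 2) to 0.10 (without Robo mutant 1).

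Single H3 genes had at most 121 counts in a library. Hist2h3c1 had 121 and 0 counts in Robo mutant cells, against 0 and 101 in control cells, while Hist2h3c2, for the same protein, had 88 and 45 counts in Robo mutant cells, against 35 and 35 in control cells. Hist1h3e had 64 and 38 counts in Robo mutant cells, against 43 and 91 in control cells, and overlapped. Hist1h3f had 58 and 70 counts in Robo mutant cells, against 0 and 7 in control cells, a log2 change (± SE) of 3.95 ± 1.93 (adjusted p of 0.899 by edgeR). Hist1h3a, Hist1h3d and Hist1h3i were lower in both Robo mutant libraries, with log2 changes of -2.10, -1.40 and -2.41 on 0 to 32 counts per library. Hist1h3a and Hist1h3i passed the filter only through the control libraries, and Hist1h3f only through the Robo mutant libraries. Nothing is therefore read from the direction of Hist1h3a, Hist1h3i and Hist1h3f. Hist1h3e and Hist1h3f match each other over 833 bases, so the way shared reads are divided bears on both counts. Hist2h3c1 overlaps the predicted gene Gm20634, and the same limit holds for it.

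Among the H4 genes, Hist1h4h was at 8.98 and 9.70 CPM in Robo mutant cells, against 9.86 and 7.44 CPM in control cells. Hist1h4i was at 5.12 and 8.80 CPM in Robo mutant cells, against 5.35 and 6.97 CPM in control cells. Both overlapped, as did Hist1h4n, Hist1h4d and Hist2h4, with log2 changes of 0.25, -0.07 and -1.33. Hist1h4j was lower, with 39 and 71 counts in Robo mutant cells, against 114 and 113 in control cells (log2 change ± SE, -1.14 ± 0.77). Hist4h4, the only member on chromosome 6, had 0 and 5 counts in Robo mutant cells, against 30 and 19 in control cells, and Hist1h4k had 12 and 44 counts in Robo mutant cells, against 0 and 3 in control cells. The edgeR adjusted p of these 3 was 0.954, 0.922 and 0.901. Hist4h4 passed the filter only through the control libraries and Hist1h4k only through the Robo mutant libraries, so nothing is read from their direction.

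Many clustered histone genes share a promoter region with a partner read in the other direction. In 14 pairs of members the starts lay back to back within 1000 bases, and 13 of them paired an H2A with an H2B gene. In 62 genes with a promoter in RefSeq's table (250 bases before to 50 after the start, GRCm38.p6), the letters TATAAA occurred in 35 (56.5%, against 14.2% of 27025 promoters) and CCAAT in 53 (85.5%, against 37.9%), counting both strands. All promoters of the set without CCAAT belonged to H4 genes, of which only Hist1h4a, Hist1h4c and Hist1h4d had these letters. The motif AAACACA, known from H1 promoters, occurred in 9 of the 62 and in 5 of the 6 H1 genes, against 7.14% of all promoters.

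The partners of a pair were often present at unequal levels. The H2B gene was the higher partner in 10 of the 14 pairs. In 4 pairs the higher partner was at 10 CPM per kilobase or more while the lower was under 1, and in 6 pairs both were under 1 CPM per kilobase. Hist1h2bc was at 90.6 CPM per kilobase and its partner Hist1h2ac at 0.286, and Hist1h2bm at 77.2 and its partner Hist1h2aj at 0.625. Hist1h2aj is annotated as an unprocessed pseudogene, and its only counts were 40 in Robo mutant 2. Hist1h2ap, an H2A gene, was at 24.6 CPM per kilobase and its H2B partner Hist1h2br at 0.207. Hist2h2be was at 9.70 CPM per kilobase and Hist2h2ac, read from the same 238 bases, at 0.325. The interval between their starts is shown as an example of such a shared promoter (chr3:96220881-96221118, plus strand, GRCm38, from RefSeq), with the letters CCAAT and TATAAA of either strand in capitals.
Hist2h2ac and Hist2h2be: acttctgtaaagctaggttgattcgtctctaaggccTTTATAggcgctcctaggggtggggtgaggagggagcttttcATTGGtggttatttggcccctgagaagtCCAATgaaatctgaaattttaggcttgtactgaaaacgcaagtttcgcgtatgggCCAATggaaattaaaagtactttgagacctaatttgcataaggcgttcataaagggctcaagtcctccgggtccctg
CCAAT occurs at 2 places on the plus strand and 1 on the minus strand, and TATAAA at 1 place on the minus strand, towards Hist2h2ac. Hist2h2be had 1037 and 1548 counts in Robo mutant cells, against 1080 and 989 in control cells, and Hist2h2ac had 2 and 11 counts in Robo mutant cells, against 13 and 5 in control cells. Neither gene separated the genotypes.

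By location, the genes on chromosome 13 summed to 499 and 644 CPM in Robo mutant cells, against 399 and 474 CPM in control cells, to which Hist1h1c gave the most counts. Those on chromosome 3 summed to 93.6 and 108 CPM in Robo mutant cells, against 123 and 124 CPM in control cells. That sum holds Hist2h2aa2 but not Hist1h2al, which is counted on chromosome 13. The 2 genes on chromosome 11 summed to 57.9 and 56.8 CPM in Robo mutant cells, against 57.7 and 59.3 CPM in control cells.

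Genes that act on histones or with them were described from lists. Of 16 tested genes of histone messenger RNA processing, 0 passed edgeR at an adjusted p under 0.05, with 1 at an unadjusted p under 0.05 (beside 6.21% of all tested genes), and DESeq2 called 0. That 1 was Lsm11, a subunit of the U7 particle that cuts histone transcripts after the stem-loop, at 7.64 and 7.37 CPM in Robo mutant cells, against 3.74 and 2.87 CPM in control cells (adjusted p of 0.795 by edgeR). Npat, the coactivator of histone gene transcription, was at 31.1 and 49.2 CPM in Robo mutant cells, against 61.4 and 57.2 CPM in control cells, with a log2 change (± SE) of -0.56 ± 0.26. Zfp473, a further U7-associated gene, was at 2.14 and 3.03 CPM in Robo mutant cells, against 1.40 and 0.368 CPM in control cells. Cstf2, a polyadenylation factor gene, and Snrpb, for a core protein of such particles and the list's highest gene in CPM, had log2 changes (± SE) of -0.29 ± 0.20 and 0.01 ± 0.15.

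Most variant histones can be made outside DNA replication, from genes that mostly give ordinary polyadenylated transcripts. Of 12 tested variant genes, edgeR and DESeq2 called 0, with 0 at an unadjusted p under 0.05 by edgeR, and 7 were higher and 5 lower. The list summed to 2573 and 2845 CPM in Robo mutant cells, against 2534 and 2651 CPM in control cells. H3f3b, for the H3.3 variant, was at 822 and 983 CPM in Robo mutant cells, against 727 and 800 CPM in control cells (log2 change ± SE, 0.24 ± 0.16). Cenpa, for the centromere variant, was at 4.64 and 0.836 CPM in Robo mutant cells, against 7.27 and 5.47 CPM in control cells (log2 change ± SE, -1.22 ± 0.92). H2afy2, for a macroH2A, and H2afx, for H2A.X, had log2 changes of 0.28 ± 0.19 and 0.22 ± 0.23 (SE).

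Of 22 tested chaperone and assembly genes, which carry histones to DNA, edgeR and DESeq2 called 0, with 0 at an unadjusted p under 0.05 by edgeR. Hjurp, the chaperone of the centromere variant, was at 35.3 and 32.6 CPM in Robo mutant cells, against 41.6 and 44.8 CPM in control cells, and Rbbp4 at 125 and 207 CPM, against 216 and 243 CPM. In log2 the changes came to -0.35 ± 0.15 and -0.47 ± 0.28 (SE). Supt16 was at 29.8 and 16.2 CPM in Robo mutant cells, against 76.5 and 19.9 CPM in control cells, where only control 1 was high, and its log2 change of -1.06 ± 0.71 (SE) was 0.21 without that library. Nasp and Rbbp7 had log2 changes of 0.36 ± 0.25 and 0.01 ± 0.15 (SE).

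Of 30 tested S phase genes, which mark DNA copying, edgeR and DESeq2 called 0. With edgeR 2 had an unadjusted p under 0.05, both lower in Robo mutant cells, a share near the background of 6.21% of all tested genes. They were the replication helicase genes Mcm3, at 21.7 and 21.8 CPM in Robo mutant cells, against 36.2 and 31.1 CPM in control cells, and Mcm7, at 21.5 and 12.8 CPM, against 32.8 and 36.7 CPM (edgeR adjusted p of 0.680 and 0.692). Cdc45, E2f1 and Mcm6 had log2 changes of -1.10 ± 0.47, -0.42 ± 0.18 and 0.06 ± 0.13 (SE). For 6 of the 30 both Robo mutant libraries lay below both control libraries, and for 1 above, where all tested genes had 20.4% below and 16.1% above. The median log2 change was -0.01 for this list, 0.08 for histone messenger RNA processing, 0.02 for variants and -0.04 for chaperones, beside -0.01 over all tested genes.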

How the data were processed

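The deposited table holds estimated counts per gene in whole numbers, which the authors made on GRCm38. The submitters' processing notes name RSEM 1.3.0, edgeR 3.16.5, STAR 2.5.3a and, for the reads, bcl2fastq 2.20.0.422. Their order is not stated in the labels, nor is the annotation. Although the file is labelled normalized, library totals differ, so they were treated as estimated counts. An earlier rescaling cannot be told apart, and counting floors are then approximate. The table had 0 columns of other samples.

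Counts, rounded, were tested across all genes with edgeR 4.0.16 (R 4.3.3): at least 10 counts in at least 2 libraries, TMM factors, glmQLFit and glmQLFTest, two-sided, Benjamini-Hochberg adjustment over 16517 genes, threshold 0.05. The SE of a log2 change was worked back from edgeR's test, as the size of the change divided by the square root of its F statistic. CPM values use TMM-scaled totals, and CPM per kilobase divides by the annotated exon length. Alternatives were DESeq2 1.42.0, limma 3.58.1, other scaling, other filters, merged copies and leaving out each library. The fit was tested on simulated data. Sums carry no test, since an exact permutation test of 2 against 2 libraries cannot reach 0.05. The members of the sums were also chosen with results known.

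Of the 69 genes, 67 matched GENCODE M21 by identifier and 2 by symbol. Shared sequence was found with BLAST 2.17.0. The stem-loop search looked, in annotated transcripts, for a 6-base stem with a 4-base loop, with most letters fixed in advance. Members and lists were chosen with earlier results of these data known. Named members are those called by edgeR or DESeq2, the 4 most abundant and the 4 of smallest p of each type, and those whose genotypes do not overlap with a log2 change of at least 1. Of each other list the rule takes the 4 genes of smallest p and the most abundant one. Hist1h1t, Hist2h2be, Hist2h2ac and the partners in pairs were added after their values were seen.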

Additional observations from a re-analysis of the deposited data

How the results depend on the processing

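The median over 48 tested histone genes moved to 0.12 with at least 50 counts in 2 libraries, where 29 genes were tested, and ran from -0.26 to 0.13 with a library left out. DESeq2 called 2 histone genes, Hist1h2al and Hist2h2aa2, where edgeR called 0. Of these, Hist1h2al passed the filter only through the Robo mutant libraries. With a library left out, edgeR gave from 2 (without control 1) to 8 (without Robo mutant 1) histone genes with an unadjusted p under 0.05, where those fits gave 1.2% and 19% of all tested genes, and called 0. Without the most abundant member, Hist1h1c, the H1 log2 ratio was 0.062. The H2A ratio was -0.20 on totals only, -0.46 without annotated pseudogenes and -0.26 without Hist2h2aa1, and ran from -0.18 to -0.091 with a library left out. The H3 and H4 ratios turned direction with a library left out, from -0.49 to 0.63 and from -0.14 to 0.10. The ratio of the 3-gene sum, examined after the data were seen, was -0.075 on totals only.

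Directions turned with a library left out for Hist1h1e (-0.051 to 1.22), Hist1h2bc (-0.10 to 0.31), Hist1h2bm (-0.057 to 0.88), Hist1h3e (-1.08 to 0.24), Hist1h4d (-1.20 to 0.56), Hist1h4h (-0.077 to 0.33), Hist1h4i (-0.26 to 0.52), Hist1h4n (-0.015 to 0.51), Hist2h3c1 (-1.03 to 0.97) and Hist2h4 (-8.50 to 0.38). The same held for H2afx (-0.040 to 0.45), Rbbp7 (-0.10 to 0.11), Snrpb (-0.13 to 0.15) and Supt16 (-1.73 to 0.21), and on totals only for Rbbp7 (-0.050) and Snrpb (-0.048). The causes were not tested. No paired analysis was possible because the labels give no replicate numbers shared between the genotypes. With 2 libraries per genotype, a lone remaining library is assumed to vary like the other genotype. Genes of few counts, among them most H3 genes, had standard errors too large to show moderate differences.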
